A study of Drosophila melanogaster with 2 samples.

Results

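The small nuclear RNA (snRNA) and small nucleolar RNA (snoRNA) genes of Drosophila melanogaster were examined for sites occupied by Ash1, a histone methyltransferase of the trithorax group. They comprised every annotated gene whose symbol begins with snRNA: or snoRNA:, 289 genes of 18164 on 6 chromosome arms, of which 32 were snRNA and 257 were snoRNA genes. Chromatin immunoprecipitation and sequencing (ChIP-seq) had been carried out on whole embryos, 0 to 24 h old and of both sexes, of a transgenic line that stably expresses Ash1 with GFP fused to its C terminus. There was 1 group with 2 biological replicates, numbered 2 and 4. Another condition or an untagged strain was not analysed here. All values therefore come from embryos that carry the tagged protein, from chromatin of all cell types together, and whether untagged Ash1 is made too is not given in the sources used here. In the labels, free text calls both samples input controls, whereas the antibody field names ash1. Both were taken as ChIP material.

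The deposited data were 4 lists of regions in dm6 coordinates. Each replicate had 30000 candidate regions, peaks and background together, the pooled alignments gave another 30000, and 1567 pooled candidates passed the authors' irreproducible discovery rate (IDR) threshold and are called peaks below. The peaks were exactly the pooled candidates of highest signal value, down to 92.53 against 92.52 for the next one. Regions are given by their rank within a list, with 1 the strongest. A candidate was assigned to a gene when its summit lay within 500 bp of the gene. A candidate could serve several genes, and genes that shared one are not independent observations. Read counts were not part of the lists, so depth was unknown and ranks carry no interval for read sampling. The only measure of error was the difference between the 2 replicates, both of which had been called against the same control.

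snRNAs form the core of the spliceosome. U1 pairs with the 5′ splice site, U2 with the branch point, and U4, U5 and U6 join as a tri-snRNP. Most snRNA genes are transcribed by RNA polymerase II and some, among them the U6 genes, by RNA polymerase III. Both kinds use a proximal sequence element A (PSEA) upstream of the RNA. snoRNAs guide chemical modification of ribosomal and spliceosomal RNA, the box C/D class 2′-O-methylation and the box H/ACA class pseudouridylation. In flies nearly all of them are cut out of introns of longer host transcripts, many of which encode ribosomal proteins or are the noncoding U snoRNA host genes (Uhg).

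The core of the PSEA was searched as AATTCNCAA on both strands, from 250 bases before to 50 after the 5′ end. These letters were chosen as the core shared by PSEAs of fly snRNA genes, so a high share there follows from the choice. They occurred at 28 of 32 snRNA genes (87.5%) and at 2.35% of all 18164 genes. Of 11 snoRNA genes that overlapped no other gene, 4 had them (36.4%). In 27 snRNA genes the core lay on the gene's own strand and began 57 to 66 bases upstream of the 5′ end. It began 68 bases upstream in snoRNA:Me18S-A1806 and 61 in snoRNA:U3:9B. Among all genes, 46 (0.253%) had a core that began 50 to 70 bases upstream. It did not separate snRNA genes by Ash1 candidates, since it was found at 11 of 12 genes with a candidate and at 17 of 20 without. The sequences below, from RefSeq's copy of Release 6 of the genome, are shown for all U1 and 7SK genes and the U2 genes of the 34AB cluster, where 1 copy of each family was bound and others were not, for the U6 genes, and for the U3 snoRNA gene that shares the element. Each holds the 75 bases before the gene and its first 5, and capitals mark the PSEA core.
snRNA:U1:95Ca, chr3R:23859626-23859705, minus strand: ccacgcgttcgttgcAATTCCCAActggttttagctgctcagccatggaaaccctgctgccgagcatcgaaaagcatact
snRNA:U1:82Eb, chr3R:4948092-4948171, minus strand: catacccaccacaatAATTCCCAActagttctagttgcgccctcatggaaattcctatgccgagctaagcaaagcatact
snRNA:U1:21D, chr2L:901650-901729, minus strand: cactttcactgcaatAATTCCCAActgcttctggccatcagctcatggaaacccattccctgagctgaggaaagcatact
snRNA:U1:95Cb, chr3R:23827795-23827874, plus strand: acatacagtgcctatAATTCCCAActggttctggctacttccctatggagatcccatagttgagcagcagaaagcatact
snRNA:U1:95Cc, chr3R:23826259-23826338, plus strand: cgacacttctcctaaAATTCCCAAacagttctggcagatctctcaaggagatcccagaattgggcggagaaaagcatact
snRNA:U2:34ABb, chr2L:13215764-13215843, plus strand: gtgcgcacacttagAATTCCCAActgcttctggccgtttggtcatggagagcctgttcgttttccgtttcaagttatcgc
snRNA:U2:34ABa, chr2L:13212112-13212191, minus strand: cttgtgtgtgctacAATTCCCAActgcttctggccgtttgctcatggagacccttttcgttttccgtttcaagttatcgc
snRNA:U2:34ABc, chr2L:13244557-13244636, minus strand: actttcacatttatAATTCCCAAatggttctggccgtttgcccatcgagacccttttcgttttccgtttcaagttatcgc
snRNA:7SKa, chr3R:7474992-7475071, minus strand: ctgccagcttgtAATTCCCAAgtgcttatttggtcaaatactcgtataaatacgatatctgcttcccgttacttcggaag
snRNA:7SKb, chr3R:23432794-23432873, plus strand: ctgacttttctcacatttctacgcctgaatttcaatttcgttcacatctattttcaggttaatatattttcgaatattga
snRNA:U6:96Aa, chr3R:24556013-24556092, plus strand: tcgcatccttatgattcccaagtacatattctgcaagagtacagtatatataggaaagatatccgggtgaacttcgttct
snRNA:U6:96Ab, chr3R:24556617-24556696, plus strand: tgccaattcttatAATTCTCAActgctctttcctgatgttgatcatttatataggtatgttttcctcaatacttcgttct
snRNA:U6:96Ac, chr3R:24557140-24557219, plus strand: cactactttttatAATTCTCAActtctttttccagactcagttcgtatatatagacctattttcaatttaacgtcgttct
snoRNA:U3:9B, chrX:10348050-10348129, plus strand: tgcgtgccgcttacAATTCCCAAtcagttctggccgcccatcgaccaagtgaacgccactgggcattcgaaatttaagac

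In these 14 windows snRNA:7SKb and snRNA:U6:96Aa had no core in capitals. The window of snRNA:U6:96Aa does hold gattcccaa near the place of the core, which differs from the searched letters only in its first base. The exact search misses such variants. Over the 75 upstream bases, snRNA:U1:95Ca matched the other U1 copies at 54.7% to 62.7% of positions, and snRNA:U2:34ABb matched snRNA:U2:34ABa and snRNA:U2:34ABc each at 81.3%. It matched the U2 copies outside that cluster at 33.3% to 41.3%, but positions were compared without gaps. The core begins 61 bases upstream of the 5′ end in snRNA:U2:34ABb and 60 in those copies. Even the shared core was thus compared out of register, and these shares do not show how alike the sequences are.

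Of the 289 genes, 87 had a pooled candidate within 500 bp and 11 had a peak. These 11 were 12.6% of the genes with a candidate, against 16.7% of all 9477 genes with a candidate within the same distance. The snRNA and snoRNA genes are short, at most 511 bp long, and among the 705 other genes of at most this length with a candidate 9.22% had a peak. A candidate was present at 30.1% of snRNA and snoRNA genes, at 28.1% of the other short genes and at 52.2% of all genes. The median rank of the strongest candidate was 9843, against 11986 for the other short genes and 7924 for all genes. Counted as regions, 10 of 77 distinct candidates at snRNA and snoRNA genes were peaks (13.0%), against 5.22% of all 30000 candidates. By genes the share was thus below that of all genes and somewhat above that of short genes, while by regions it was above that of all candidates. No test of these shares was made, because members share candidates and the design has a single group.

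**Figure D1:**
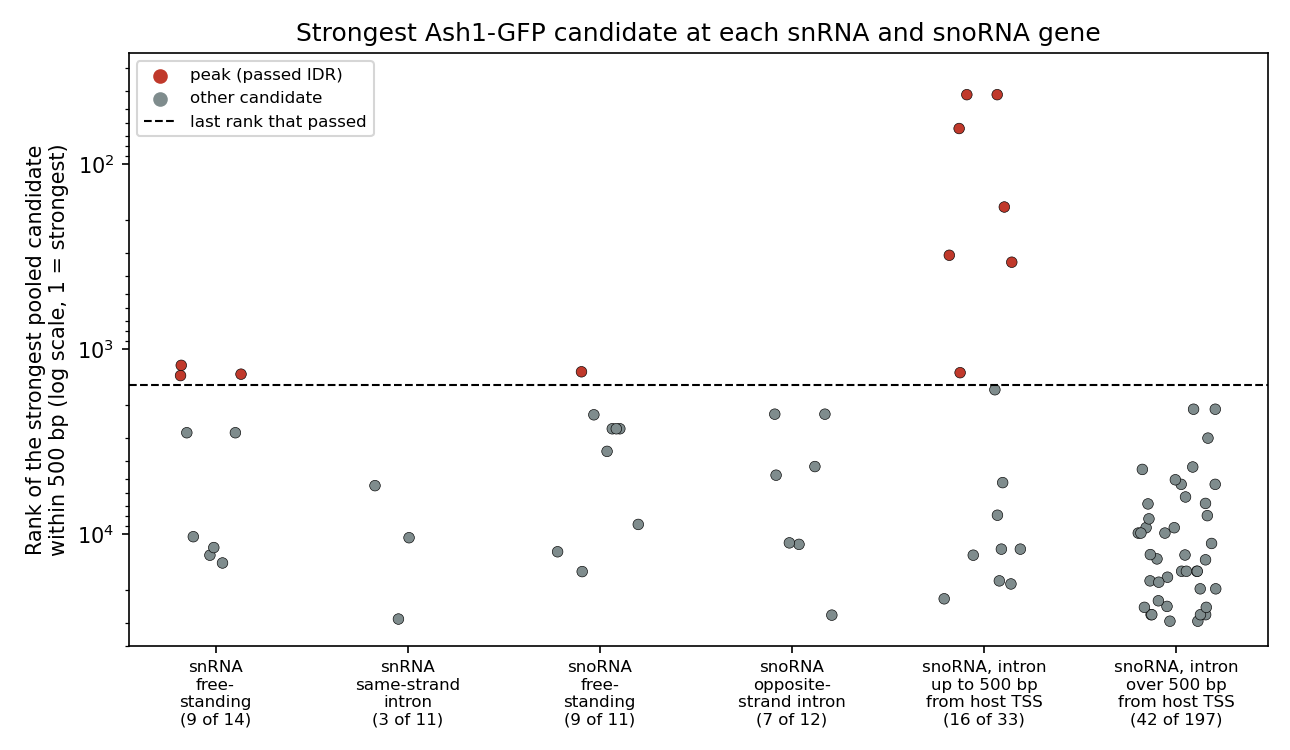
Rank of the strongest pooled candidate within 500 bp of each snRNA or snoRNA gene (vertical log axis, 1 at the top is the strongest), by the place of the gene; brackets give genes with a candidate of all genes in the class. Red points are peaks, grey points other candidates, and the dashed line is rank 1567; the strongest points, ranks 42 to 338, are snoRNA genes in introns within 500 bp of the host's start, and the class of 4 snoRNA genes that overlap another gene, 1 of them with a candidate, is not drawn.

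Among the 32 snRNA genes 12 had a candidate and 3 had a peak, 25% of those with a candidate. The share was 16.7% for all genes and 9.22% for the other short genes. All 3 snRNA genes with a peak were free-standing, that is, they overlapped no other gene. Of 14 free-standing snRNA genes 9 had a candidate. Of 11 in an intron of a gene on the same strand 3 had one and none had a peak. None of the 6 in an opposite-strand intron, and not the 1 that overlapped another gene otherwise, had a candidate.

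snRNA:U1:95Ca encodes U1, which recognises the 5′ splice site. Its peak ranked 1362 in the pooled list, 1777 in replicate 2 and 1520 in replicate 4. The summit, at 3R position 23859643, lay 13 bp upstream of the 5′ end, and the nearest start of another gene (Pli) was 30409 bp away. Of the other 4 U1 genes only snRNA:U1:82Eb had a candidate. It ranked 10297 in the pooled list and 6648 in replicate 4, had no match within 100 bp in replicate 2, and its summit lay 29 bp upstream of the gene. The summits at both U1 genes thus fell between the PSEA and the start of the RNA.

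snRNA:U2:34ABb encodes U2, which pairs with the branch point. Its peak ranked 1220 in the pooled list, 1963 in replicate 2 and 1230 in replicate 4. The summit, at 2L position 13215927, lay 88 bp into the gene and 577 bp from the nearest start of another gene, kek4. Of the 3 bound snRNA regions this one was the strongest in the pooled list and in replicate 4 and the weakest in replicate 2. The neighbouring snRNA:U2:34ABa had a candidate of rank 14283 with no match in either replicate. The summit of that candidate lay 172 bp into the 192 bp gene and 130 bp from the start of CG15482. The other 4 U2 genes had no candidate.

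The U1 and U2 genes are nearly identical copies, which limits what reads inside them can show. snRNA:U1:95Ca matches snRNA:U1:21D and snRNA:U1:95Cb at 100% of bases, and snRNA:U2:34ABb matches snRNA:U2:34ABc at 100%. No run of 50 bases inside snRNA:U1:95Ca or snRNA:U2:34ABb is unique in the genome (0%), while 88.5% and 85.7% of the runs are unique once the 500 bp flanks are included. How reads that fit several copies were placed is not given in the sources used here, and its part in these ranks was not tested. snRNA:U2:34ABc, which has no candidate, also has repeated flanks, with 43.1% of runs unique.

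snRNA:7SKa encodes 7SK, the scaffold RNA that holds the elongation kinase P-TEFb inactive. Its peak ranked 1386 in the pooled list, 1313 in replicate 2 and 1465 in replicate 4, the closest accord of the 3 bound snRNA genes. The summit, at 3R position 7474809, lay 187 bp into the 444 bp gene and 1028 bp from the nearest start of another gene, CG1142. Every run of 50 bases in snRNA:7SKa is unique (100%). snRNA:7SKb, in an opposite-strand intron of CG4374, had no candidate in any list and no PSEA core. Its end-to-end alignment with snRNA:7SKa took 236 edits, an identity of 46.8% over the longer gene. No chance level was computed for this value.

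The U6 genes, which encode the RNA at the catalytic centre of the spliceosome, lie in a cluster on 3R. snRNA:U6:96Ab and snRNA:U6:96Ac shared a candidate of rank 2823 in the pooled list, 4298 in replicate 2 and 1582 in replicate 4. Its summit lay between the genes, 107 bp upstream of snRNA:U6:96Ac and 310 bp beyond the end of snRNA:U6:96Ab. snRNA:U6:96Aa, in an intron of Esyt2, had no candidate in any list. The 3 genes are identical (100%) and hold no unique run of 50 bases (0%), so the limit given for U1 and U2 applies to them too. In replicate 4 the shared region fell just outside the 1567 strongest, in replicate 2 far outside.

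U4 pairs with U6 before the spliceosome is activated, and U5 holds the exons in place. snRNA:U4:39B, in an intron of the autophagy gene Atg18b, had a summit 24 bp into the gene that ranked 5455 in the pooled list, 2852 in replicate 4 and 25023 in replicate 2. snRNA:U5:63BC had a candidate of rank 11789, with its summit 309 bp downstream of the 5′ end. The candidate of snRNA:U5:35D, of rank 12965, lay 77 bp from the start of ND-B17, a subunit gene of respiratory complex I. None of the other U4 and U5 genes had a pooled candidate. These regions were weak, and the 2 replicates placed the U4 region far apart.

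The minor spliceosome and the remaining snRNAs showed little signal. snRNA:U4atac, in an intron of cno, had a candidate of rank 28700 whose summit lay 452 bp from the gene, and snRNA:LU, in an intron of FASN2, one of rank 10429 at 307 bp. snRNA:U6atac had none in any list, and neither had snRNA:U7, whose RNA processes histone mRNA 3′ ends. snRNA:U11 had a candidate of rank 7768 in replicate 4 alone and snRNA:U12 one of rank 21524 in replicate 2 alone.

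**Figure D2:**
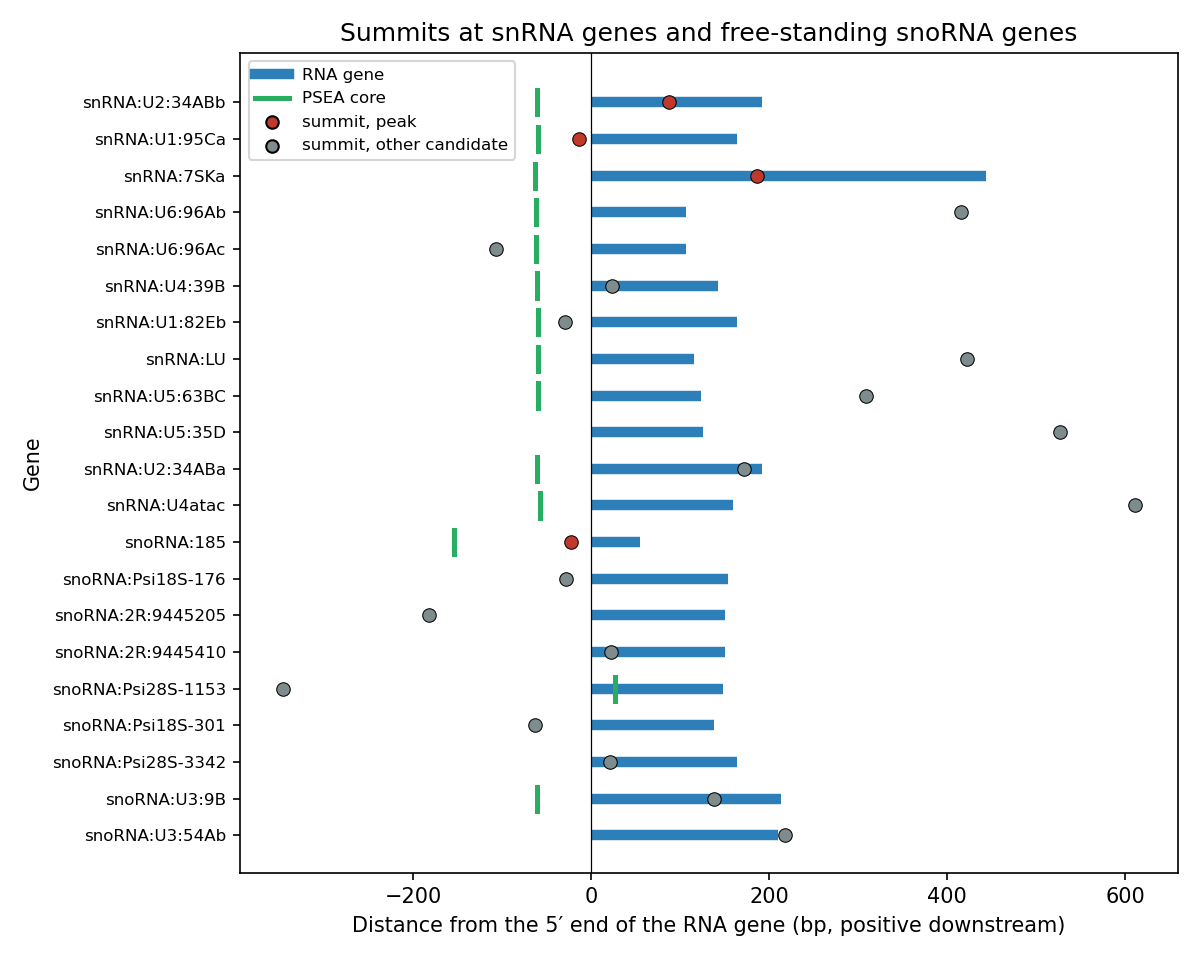
Distance of the strongest pooled summit from the 5′ end of each snRNA gene and each free-standing snoRNA gene that has a candidate (horizontal axis in bp, positive downstream), with the RNA gene as a blue bar and a PSEA core on the gene's strand as a green mark. Red summits are peaks and grey ones other candidates; the green marks of the snRNA genes drawn line up 57 to 63 bases upstream, whereas the snRNA summits spread from 107 bp upstream to 611 bp downstream.

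More snRNA genes were among the strongest in replicate 4 than in replicate 2. Among its 1567 strongest candidates were regions at 3 of 14 snRNA genes with a candidate there, the same 3 that had a pooled peak, against 15.8% of all genes with a candidate in that list. In replicate 2 this held for 1 of 11, snRNA:7SKa, against 16.8% of all genes. snRNA:7SKa was thus the 1 snRNA gene among the strongest in both. The ranks of snRNA:U1:95Ca and snRNA:U2:34ABb in replicate 2, 1777 and 1963, lay just past that limit.

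**Figure D3:**
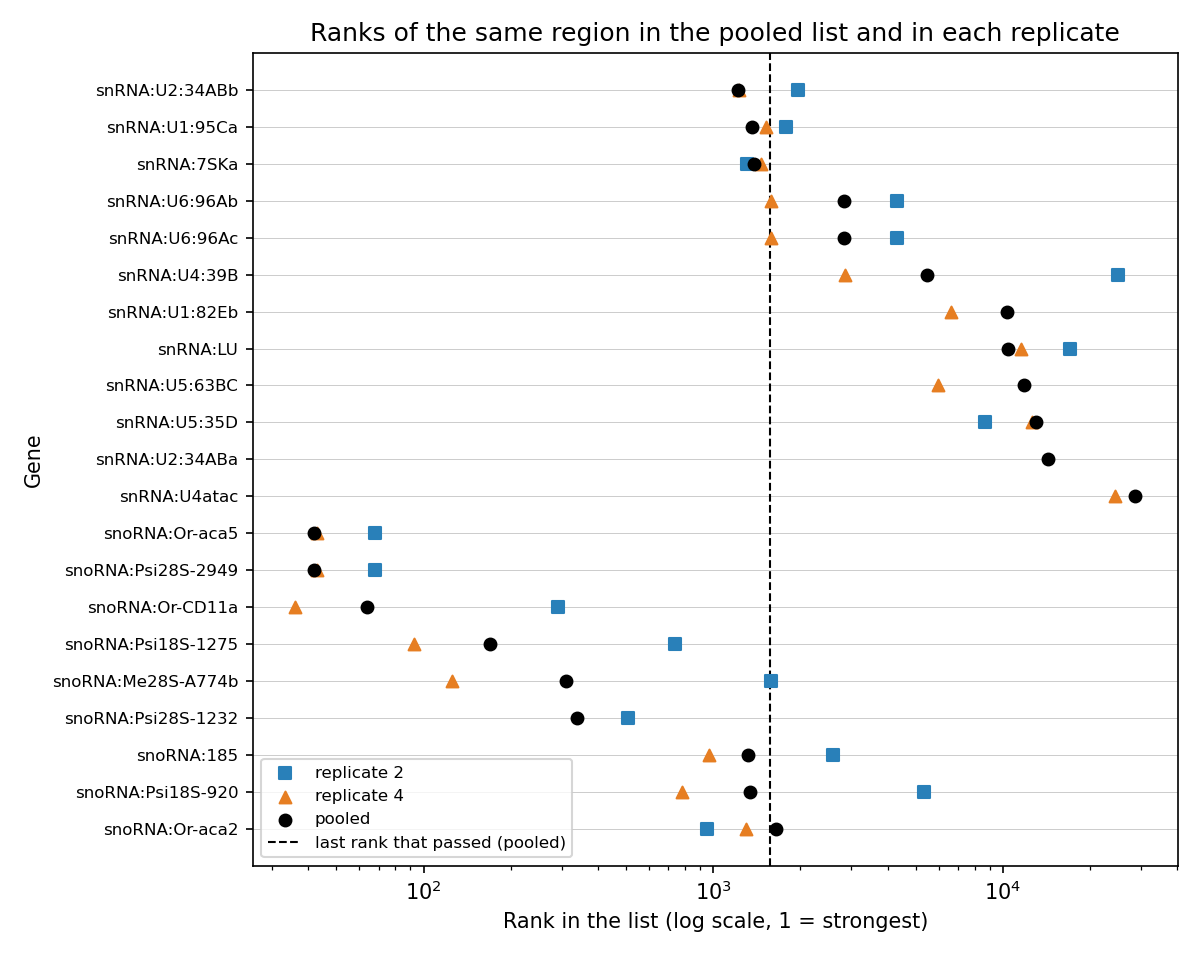
Rank of the same region in the pooled list (black circles), replicate 2 (blue squares) and replicate 4 (orange triangles) for each snRNA gene with a candidate, each bound snoRNA gene and snoRNA:Or-aca2 (horizontal log axis, 1 is the strongest); a missing symbol means no summit within 100 bp. The 3 bound snRNA genes sit near the dashed line at rank 1567, and 5 of the bound snoRNA regions sit well to its left in the pooled list.

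Among the 257 snoRNA genes 75 had a candidate and 8 had a peak, 10.7% of those with a candidate. The share was 16.7% for all genes and 9.22% for the other short genes. Of the 230 snoRNA genes in an intron of a gene on the same strand, 58 had a candidate and 7 had a peak. Of 11 free-standing snoRNA genes 9 had a candidate and 1 had a peak. The 12 in an opposite-strand intron had 7 with a candidate and none with a peak, and of the 4 that overlapped another gene otherwise 1 had a candidate. By the class that the symbol names, 2 of 19 box C/D genes with a candidate, 5 of 41 box H/ACA genes and 1 of 15 others had a peak. These shares lie close together. The others are not a class of RNA. Of all 49 of them, 19 held box C (TGATGA) and 25 box D (CTGA), the U3 and U14 genes among them.

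The hosted snoRNA genes with a peak lay at the start of ribosomal protein genes in 5 of 7 cases. snoRNA:Or-CD11a, a box C/D RNA by its symbol in RpL28 on 3L, had a peak of rank 64 in the pooled list, 292 in replicate 2 and 36 in replicate 4. snoRNA:Psi18S-1275, a box H/ACA RNA named for a pseudouridine of 18S rRNA, in RpS29 on 3R, had ranks 170, 739 and 93 in the same order. snoRNA:Me28S-A774b, a box C/D RNA named for a methylated base of 28S rRNA, in RpS12 on 3L, had ranks 310, 1588 and 125. These 3 were far stronger in replicate 4 than in replicate 2, and the RpS12 region just missed the strongest 1567 of replicate 2.

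snoRNA:Psi28S-1232, in RpL17 on X, had ranks 338 in the pooled list and 508 in replicate 2, and no summit within 100 bp in replicate 4. snoRNA:Psi18S-920, in RpL10Ab on 3L, had ranks 1337, 5333 in replicate 2 and 783 in replicate 4. The snoRNA genes themselves follow, from RefSeq's Release 6, with capitals marking box C (TGATGA) and box D (CTGA) of the C/D RNAs and the ACA box of the H/ACA RNAs. Box D was searched in the last 15 bases and ACA in the last 8. All 5 genes hold the boxes searched for the class that their symbols name. Box H of the H/ACA RNAs was not searched.
snoRNA:Or-CD11a, chr3L:3222475-3222541, minus strand: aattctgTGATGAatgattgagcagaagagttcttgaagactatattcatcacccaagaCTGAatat
snoRNA:Me28S-A774b, chr3L:13023580-13023652, plus strand: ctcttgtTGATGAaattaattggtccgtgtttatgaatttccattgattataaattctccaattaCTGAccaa
snoRNA:Psi18S-1275, chr3R:9778398-9778537, plus strand: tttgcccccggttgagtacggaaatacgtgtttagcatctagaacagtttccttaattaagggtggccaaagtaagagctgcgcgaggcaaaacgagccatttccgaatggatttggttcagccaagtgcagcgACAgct
snoRNA:Psi18S-920, chr3L:11822984-11823124, plus strand: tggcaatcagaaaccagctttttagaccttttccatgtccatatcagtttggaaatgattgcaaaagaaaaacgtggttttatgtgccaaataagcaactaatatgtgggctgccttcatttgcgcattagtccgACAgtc
snoRNA:Psi28S-1232, chrX:6743675-6743815, minus strand: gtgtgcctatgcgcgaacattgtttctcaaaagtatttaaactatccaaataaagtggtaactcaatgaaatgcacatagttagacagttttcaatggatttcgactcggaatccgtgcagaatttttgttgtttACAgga

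The summits of these regions were not over the snoRNA genes. They lay 45 bp upstream of the start of RpL28, 10 bp downstream of that of RpS29, 13 bp upstream of that of RpS12, 21 bp downstream of that of RpL17 and 18 bp upstream of that of RpL10Ab. The nearest edges of the snoRNA genes were 464, 346, 241, 402 and 151 bp from the summit in the same order. The host starts are shown with 60 bases on each side, so that the transcription start site (TSS) is base 61, and capitals mark 7 bases centred on the summit.
RpL28, chr3L:3222900-3223020, minus strand: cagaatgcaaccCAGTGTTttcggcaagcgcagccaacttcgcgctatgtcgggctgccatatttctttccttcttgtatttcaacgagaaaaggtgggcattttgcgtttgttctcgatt
RpS29, chr3R:9777982-9778102, plus strand: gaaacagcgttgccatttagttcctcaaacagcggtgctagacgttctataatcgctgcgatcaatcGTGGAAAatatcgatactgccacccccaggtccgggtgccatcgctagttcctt
RpS12, chr3L:13023292-13023412, plus strand: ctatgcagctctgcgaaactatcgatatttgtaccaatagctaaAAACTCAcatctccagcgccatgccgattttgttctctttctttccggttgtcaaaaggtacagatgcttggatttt
RpL17, chrX:6744178-6744298, minus strand: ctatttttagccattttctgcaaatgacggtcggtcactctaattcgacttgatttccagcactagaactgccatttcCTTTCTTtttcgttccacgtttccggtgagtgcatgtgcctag
RpL10Ab, chr3L:11822791-11822911, plus strand: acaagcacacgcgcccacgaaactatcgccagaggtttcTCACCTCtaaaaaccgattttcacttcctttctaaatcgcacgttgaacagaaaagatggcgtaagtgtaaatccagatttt

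The capitals sit before base 61 in RpL28, RpS12 and RpL10Ab and after it in RpS29 and RpL17. The letters CTTTTC, searched for the polypyrimidine initiator of ribosomal protein genes on both strands from 250 bases before to 50 after the gene's 5′ end, occurred in 13 of 35 host genes with a peak at a TSS (37.1%), in 26 of all 80 host genes (32.5%) and in 26% of all genes. The DRE (TATCGATA) occurred in 20.0%, 21.2% and 7.51% of the same sets. Motif 1 (GGTCACAC) occurred in 11.4%, 12.5% and 6.12%. Both were more frequent at host genes than at all genes, with little difference between bound hosts and all hosts. No snRNA gene and no free-standing snoRNA gene held either of these elements.

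The remaining hosted snoRNA genes with a peak were snoRNA:Or-aca5 and snoRNA:Psi28S-2949, both in introns of the noncoding host Uhg4 on 2R. They shared a peak of rank 42 in the pooled list, 68 in replicate 2 and 43 in replicate 4, the strongest region at any snRNA or snoRNA gene. Its summit lay 48 bp upstream of the Uhg4 start, 460 bp from snoRNA:Or-aca5 and 147 bp from snoRNA:Psi28S-2949. Thus all 6 peaks at hosted snoRNA genes lay 10 to 48 bp from a host TSS. Of the 41 other candidates at hosted snoRNA genes, 10 lay within 500 bp of a host TSS, 3 at the TSS of another gene and 28 at no TSS.

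**Figure D4:**
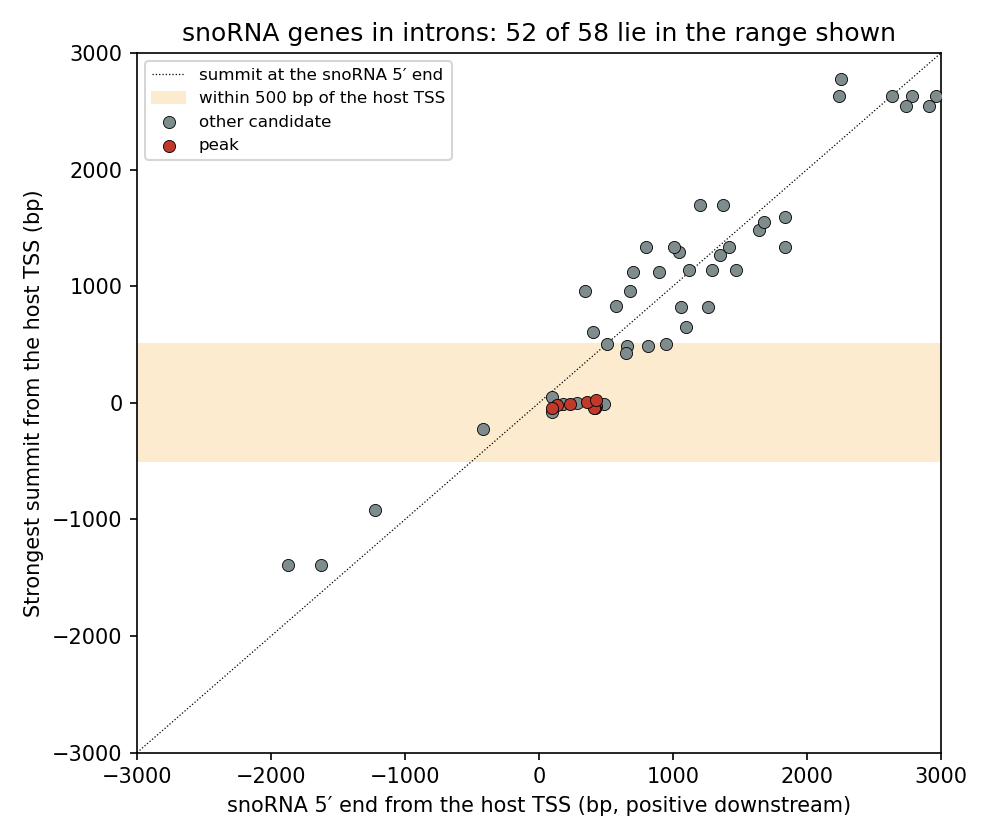
Position of the strongest summit (vertical) against the 5′ end of the snoRNA gene (horizontal), both in bp from the host TSS nearest to the summit, for the 52 of 58 snoRNA genes with a candidate in a same-strand intron that lie within 3000 bp. Red points are peaks and grey points other candidates; the red points lie flat along 0 inside the shaded 500 bp, while most grey points follow the dotted line on which a summit would coincide with the snoRNA start, a spread that the 500 bp rule itself limits.

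All hosted snoRNA genes with a peak began within 500 bp of a host TSS, but most genes that near had none. Of 33 hosted snoRNA genes that began within 500 bp of a host TSS, 16 had a candidate and 7 a peak. Of 47 that began farther than that but within 1000 bp 10 had a candidate, of 71 at up to 2000 bp 19, and of 79 farther away 13, and none of these had a peak. The median distance over all 230 was 1422 bp. Because candidates were searched within 500 bp of the gene, a peak at the TSS can be assigned only to snoRNA genes near it. The lack of TSS peaks at the farther genes thus follows largely from the rule.

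Host promoters often had a peak even where none of their snoRNA genes did. Of 80 host genes, 63 had a candidate within 500 bp of a TSS and 35 had a peak, 55.6% against 15.4% of all 7494 genes with a candidate at a TSS. These 35 hosts carry 99 snoRNA genes, 7 of which had a peak within 500 bp. In 29 of the 35 hosts no snoRNA gene was that close to a peak. The distance from the host's summit to the TSS had a median of 36 bp, and that to the nearest of its snoRNA genes a median of 922 bp, with a lowest value of 147 bp. The strongest TSS peaks among hosts, named here after their values were seen, were those of RpL14 at rank 32, RpL23A at 36, RpL13A at 38, Uhg4 at 42 and RpS4 at 50. Of the 35, 24 were among the strongest 1567 in replicate 2, 29 in replicate 4 and 20 in both.

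Ribosomal protein genes made up most of the bound hosts. Among hosts with a candidate at a TSS, 23 of 27 ribosomal protein genes had a peak (85.2%), against 33 of 48 ribosomal protein genes without a snoRNA (68.8%). Among other protein-coding genes the values were 11 of 29 hosts (37.9%), against 977 of 6166 without a snoRNA (15.8%). Of these 11 hosts, the strongest TSS peaks were at Stt3A (rank 136), lola (245) and the elongation factor gene eEF1alpha1 (344). They are named here after their values were seen. The Stt3A summit lay 372 bp from the TSS. Of 5 Uhg hosts with a candidate only Uhg4 had a peak, and of 2 other noncoding hosts none. Hosts thus had the higher share within both coding classes. A gene counted when any of its TSSs had a peak, and the classes were not matched for gene length or number of TSSs. Whether those traits account for the higher shares was not tested. No test was made of these differences.

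**Figure D5:**
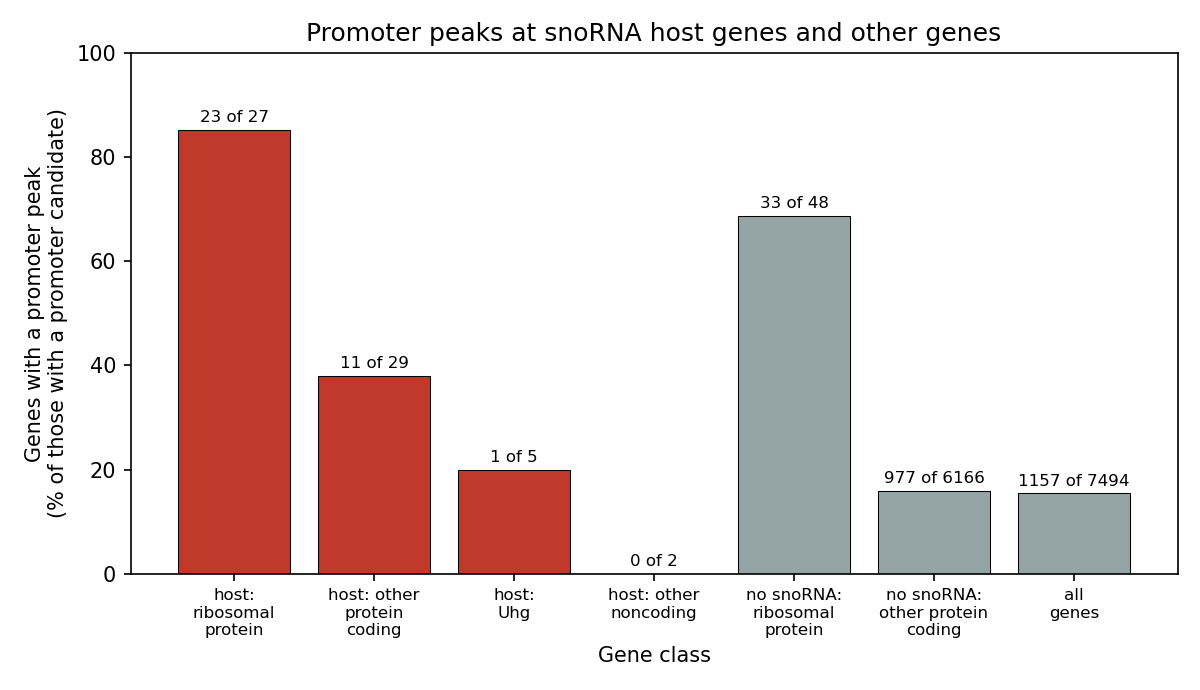
Share of genes with a peak within 500 bp of a TSS among those with a candidate there (vertical axis, in percent, starting at 0), for snoRNA host genes by kind (red) and for genes without a snoRNA and all genes (grey), with the counts above each bar. Ribosomal protein hosts reach 85.2%, against 68.8% for ribosomal protein genes without a snoRNA and 15.4% for all genes.

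Among 9 free-standing snoRNA genes with a candidate, 5 had the summit within 100 bp of their own 5′ end and the farthest was at 346 bp. snoRNA:185, on 2R, was the bound one, with ranks 1322 in the pooled list, 2592 in replicate 2 and 967 in replicate 4. Its summit lay 23 bp upstream of the gene, and the nearest start of another gene, tRNA:Glu-TTC-1-5, was 356 bp away. A weaker candidate of snoRNA:185, no peak, ranked 3701 in the pooled list, 2407 in replicate 2 and 7240 in replicate 4. That summit lay 227 bp from the gene and 152 bp from the start of tRNA:Glu-TTC-1-5. Over the 9 genes the median distance between summit and 5′ end was 63 bp (21 to 346 bp), against 172 bp (13 to 527 bp) for the 9 free-standing snRNA genes with a candidate. A median over so few genes, 3 of which shared a summit, is a description only. snoRNA:Psi18S-176 ranked 2258 with its summit 28 bp upstream, and snoRNA:Psi18S-301 ranked 3560 with its summit 63 bp upstream and 2167 bp from the start of TFAM, the nearest other gene start.

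The U3 genes, whose RNA is needed for the first cuts of the ribosomal RNA precursor, had candidates of low rank or none. snoRNA:U3:9B had a candidate of rank 12421 in the pooled list and 14145 in replicate 2, with no match in replicate 4. snoRNA:U3:54Ab had one of rank 15901 in the pooled list and 17002 in replicate 4, with no match in replicate 2, and snoRNA:U3:54Aa had none. Both genes of 54A hold no unique run of 50 bases (0%), and with the flanks 63.1% of runs at snoRNA:U3:54Ab and 63.4% at snoRNA:U3:54Aa are unique, and the part of read placement was not tested. The U14 genes, snoRNA:U14:30Ea and snoRNA:U14:30Eb in Uhg2, whose RNA takes part in 18S rRNA maturation, had no pooled candidate.

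The member nearest to the threshold from below was snoRNA:Or-aca2, a box H/ACA RNA by its symbol, on X in introns of both RpS6 and the pseudogene CR33222. Its candidate ranked 1653 in the pooled list but 952 in replicate 2 and 1294 in replicate 4, so that it was among the strongest 1567 in each replicate and not in the pooled list. Its summit lay 49 bp from the CR33222 start, 78 bp from the RpS6 start and 50 bp from the snoRNA gene. Just inside the threshold were snRNA:7SKa at 1386 and snRNA:U1:95Ca at 1362.

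The other strongest candidates that were no peaks lay at varied places. snoRNA:lola-a and snoRNA:lola-b, in an intron of lola, shared one of rank 2107 that lay 1394 bp from the nearest lola start. snoRNA:Or-ACA6 and snoRNA:Or-CD13 shared one of rank 2241, and snoRNA:Psi28S-1153 and the other two snoRNA genes beside it one of rank 2687. Besides snoRNA:Psi18S-176 and snoRNA:Psi18S-301, given above, there followed snoRNA:Me18S-C1968 in Swim at 3019 and the weaker candidate of snoRNA:185 at 3701. After these came snoRNA:CG43051-a at 4301, snoRNA:Or-CD4 in Uhg5 at 4325 and snoRNA:Me18S-G1358a in drn at 4457. The summit of snoRNA:Me18S-C1968 lay inside the snoRNA gene, 28 bp from its 5′ end and 4162 bp from the nearest other gene start. That of snoRNA:CG43051-a lay 7 bp from the start of CG43051.

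In the replicates alone, 7 of 82 snoRNA genes with a candidate in replicate 2 and 9 of 83 in replicate 4 had one of the strongest 1567, against 16.8% and 15.8% of all genes. A share for short genes was computed only in the pooled list, where it was 9.22%. The 5 that did so in both were snoRNA:Or-CD11a, snoRNA:Or-aca2, snoRNA:Or-aca5, snoRNA:Psi18S-1275 and snoRNA:Psi28S-2949. 2 more genes, named after their values were seen, had one of the strongest candidates of 1 replicate within 500 bp and no pooled peak. snoRNA:U49:66Da had rank 103 in replicate 2 from the summit at the start of its host RpL14, which was also strong in replicate 4 (rank 16) and pooled (rank 32) but with summits past 500 bp from the snoRNA gene. snoRNA:hts-a had rank 1531 in replicate 4 and 25263 in replicate 2. The pooled summit of snoRNA:hts-a lay 22 bp from the start of tRNA:Ser-CGA-1-4. In the unique-run measure used above, the genes of all 8 bound snoRNAs scored 100%.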

How the data were processed

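ChIP-seq of Ash1-GFP was given as 4 region lists in narrowPeak layout, made by the authors per the deposited text: candidates of replicate 2, of replicate 4 and of both pooled, each called against 1 shared control, and pooled peaks past an IDR threshold. The deposited signal value is a score whose scale is not stated, so it served for ranks. The summit is the deposited offset from the region start. Not given in the sources used here are the aligner, the peak caller and the IDR threshold. Genes came from Ensembl release 115 and sequences from RefSeq Release 6, in which all 289 members had the same coordinates.

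From these lists, distances, hosts and counts were computed with pandas 2.3.3, identities with edlib 1.3.9.post1. A host was a gene on the same strand with an intron that held the whole RNA gene. Regions matched between lists when summits lay within 100 bp. In replicates alone, as many of the strongest candidates as there were pooled peaks were counted. The assignment was tested on simulated regions. Every snRNA gene with a candidate, every bound snoRNA gene, those at the 10 strongest other candidates, their hosts, and U3, U14 and 7SK genes were named. No annotated symbol began with snoRNA:U8. Members, lists and rules were chosen with earlier results of these data known.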

Additional observations from a re-analysis of the deposited data

How the results depend on the processing

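Of 43 recomputed values 13 moved, counts by over 1.5 times and the share of candidates beyond its exact binomial interval. snRNA genes with a peak numbered 3, but 0 under a stricter threshold (the 783 strongest peaks) and 1 among peaks strong in both replicates, and 1 to 3 with a replicate left out (1 without replicate 4). snoRNA genes with a peak numbered 8, but 4 within 250 bp and 33 within 1000 bp, 4 among peaks strong in both replicates and 1 when a candidate counted only for the gene with the nearest TSS. Distinct peaks numbered 10, but 26 within 1000 bp, 5 under the stricter threshold, 4 among those strong in both and 4 with the nearest TSS. The share of candidates that were peaks, 13.0%, was 5.19% for those strong in both. Inside the interval but over 1.5 times away, it was 6.49% under the stricter threshold, 6.78% with the nearest TSS, 8.14% without replicate 4 and 22.5% with regions under 1000 bp apart merged. For all candidates the share was computed only at the main setting (5.22%). That value is no background for the stricter threshold, for strength in both replicates or for merged regions. Shares over all genes were not computed at other distances, for the stricter threshold or for strength in both. snoRNA genes with a peak at a host TSS numbered 7, and 4 with strength in both. The 1000 bp distance reaches more host starts by its construction, and at all 6 peaks at hosted snoRNA genes the nearest TSS is the host's. For the others the cause was not tested. No paired analysis was possible because there was 1 group. Ranks rest on signal values of unknown depth from 2 replicates.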
